A study of Mus musculus with 6 samples.

Results

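Hat1 and 9 genes of the same stretch of mouse chromosome 2 were followed in RNA sequencing of pMEFs, that is primary fibroblasts cultured from mouse embryos and not immortalized. The genes were chosen by name, as the targeted gene plus Gorasp2, Tlk1, Mettl8, Dcaf17, Cybrd1, Dync1i2, Slc25a12, Metap1d and Pdk1. All 10 were found among the 17512 genes of the count table, and all 10 were among the 14773 genes with enough counts to be tested. The libraries came from 3 HAT1 WT lines (36, 47 and 78), with the intact gene, and 3 HAT1 KO lines (33, 41 and 72), from animals carrying the mutant Hat1 allele. Every line was of C57bl6 background and grew untreated in the same serum-containing medium, and pMEFs of the study were prepared from embryos in mid-gestation after the internal organs had been taken out. The study describes a complete knockout, so no promoter or Cre limits the mutation to one cell type. Which part of Hat1 the mutant allele lacks, and whether lines of opposite genotype were littermates, was not given in the sources used here. P-values therefore measure the spread between these 6 lines and nothing wider.

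HAT1 is the acetyltransferase that modifies histone H4 shortly after it is made. It works in a complex with the histone-binding protein RBBP7, before the histone is handed to the chaperones that carry it to newly replicated DNA. A knockout allele changes the DNA at the targeted gene, and genes that lie beside it are inherited together with it. The neighbours of Hat1 have no common function. Tlk1 codes for a kinase that phosphorylates the histone chaperones ASF1A and ASF1B. The products of Slc25a12, Metap1d, Mettl8 and Pdk1 work in mitochondria, Gorasp2 belongs to the Golgi apparatus, Dync1i2 to the dynein motor and Cybrd1 to iron reduction at the plasma membrane.

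The libraries held between 67720628 and 98786746 counts, and the ranges of the genotypes overlapped. Fibroblast markers were present in all lines, with a summed level of 60770 to 68610 CPM (counts relative to the library size after TMM scaling in edgeR) in HAT1 WT and 46260 to 78260 in HAT1 KO over 9 of 9 genes. All 8 of 8 blood and macrophage markers were also detected in each line and summed to 4623 to 5029 CPM in HAT1 WT against 2236 to 2767 in HAT1 KO. The epithelial markers reached no more than 2.14 CPM in sum, with Epcam at 0 counts in WT line 36 and KO line 72, and 4 of 5 endothelial markers were in the table, at 8.87 to 12.5 CPM in sum. Ddx3y, encoded on the Y chromosome, had 6936 and 6690 counts in WT lines 36 and 47, 126 in WT line 78 and at most 8 in a KO line. Xist was at 1.25, 14.6 and 298 CPM in WT lines 36, 47 and 78. In KO lines 33, 41 and 72 it was at 154, 191 and 146 CPM. Sex-linked expression was thus unevenly spread over the genotypes and cannot be fully told apart from genotype. Sequencing lane was likewise unevenly spread, since lane 8 held WT line 36 alone.

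Hat1 lies on the plus strand of chromosome 2 (ENSMUSG00000027018, GRCm38, chr2:71388958-71441622) and is protein-coding. The DNA around its start is shown first because it is the part of the locus that sets the start of the transcript, and because the starts of the flanking genes can be read against it. Each sequence below is a RefSeq window of 300 bases on GRCm38.p6, with 250 bases before and 50 after an annotated start, written 5′ to 3′ on the strand of the gene. Capitals mark exact matches, on either strand, to a CCAAT box (CCAAT, or ATTGG on the other strand), a GC box (GGGCGG or CCGCCC) or an ETS core (CCGGAAG or CTTCCGG).
Hat1, plus strand, chr2:71389010-71389309: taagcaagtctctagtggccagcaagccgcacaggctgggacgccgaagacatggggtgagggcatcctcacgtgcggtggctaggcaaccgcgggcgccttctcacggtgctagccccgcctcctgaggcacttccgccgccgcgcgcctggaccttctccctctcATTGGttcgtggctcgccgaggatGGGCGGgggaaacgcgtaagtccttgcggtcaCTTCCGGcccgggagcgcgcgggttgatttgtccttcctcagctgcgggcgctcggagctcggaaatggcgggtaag
Metap1d, plus strand, chr2:71453088-71453387: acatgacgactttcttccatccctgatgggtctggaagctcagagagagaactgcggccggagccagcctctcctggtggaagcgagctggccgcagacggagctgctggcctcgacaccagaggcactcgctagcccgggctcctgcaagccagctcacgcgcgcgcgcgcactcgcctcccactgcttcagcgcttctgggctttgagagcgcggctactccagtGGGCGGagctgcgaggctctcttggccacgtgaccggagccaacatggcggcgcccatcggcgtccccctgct
Slc25a12, minus strand, chr2:71367706-71368005: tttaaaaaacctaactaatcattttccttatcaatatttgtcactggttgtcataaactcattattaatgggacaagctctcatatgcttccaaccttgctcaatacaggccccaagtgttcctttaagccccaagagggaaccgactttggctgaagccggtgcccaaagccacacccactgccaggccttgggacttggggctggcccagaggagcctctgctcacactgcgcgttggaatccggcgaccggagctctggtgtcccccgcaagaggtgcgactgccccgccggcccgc
Dcaf17, plus strand, chr2:71055494-71055793: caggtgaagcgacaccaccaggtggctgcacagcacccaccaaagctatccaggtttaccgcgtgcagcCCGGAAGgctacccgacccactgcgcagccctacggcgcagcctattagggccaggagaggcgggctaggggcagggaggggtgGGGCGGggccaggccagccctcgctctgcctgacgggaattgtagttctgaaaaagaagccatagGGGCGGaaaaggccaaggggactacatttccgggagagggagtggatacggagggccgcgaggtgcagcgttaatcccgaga

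The Hat1 window held 1 CCAAT box 83 to 79 bases before the start, 1 GC box and 1 ETS core, at a GC content of 66.7%. It was the window of 1 member out of 10 with a CCAAT box, although 37.4% of the 32851 RefSeq promoter windows of the mouse hold one. A GC box is found in 35.7% of those windows and the ETS core in 8.86%. The Metap1d window held 1 GC box at a GC content of 67.0%, whereas the Slc25a12 window, with a GC content of 54.3%, held none of these letters. Mettl8 and Dcaf17 start head to head, and their windows share 237 bases (chr2:71055557-71055793), so the 2 GC boxes and the ETS core printed for Dcaf17 are also those of Mettl8. Searches for a TATA box (TATAAA) and 2 E2F sites (TTTCCCGC and TTTGGCGC) found nothing in any window of the 10 genes, against 13.6%, 1.07% and 0.514% of all windows. These are matches of letters, and no binding was measured.

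The targeted gene was read in each line first. Hat1 stood at 17.4, 23.0 and 20.1 CPM in WT lines 36, 47 and 78 and at 10.2, 10.0 and 10.3 CPM in KO lines 33, 41 and 72. Every KO line lay below every WT line, and the KO lines were almost at a single value. Reads assigned to Hat1 remained in all KO libraries, with 678 to 910 counts. The KO mean was 50.4% of the WT mean, with a 95% interval from the fit of 41.3% to 61.6%. The log2 fold change (HAT1 KO minus HAT1 WT) was -0.99 (SE 0.12), and Hat1 fell in edgeR's quasi-likelihood test with an adjusted p of 0.0376 (Benjamini-Hochberg over the tested genes). Hat1 ranked 51 by p among the 14773 genes. The counts are sums over the whole gene, so they do not show which exons the reads in the KO libraries came from. A pseudogene of 381 bases on the opposite strand, Gm13642, lies inside the Hat1 body, and a search of the annotated transcripts for near-identical copies of Hat1 (at least 90% identity over 200 bases) found none.

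The relative SD of Hat1 was 13.9% among the 3 WT lines and 1.44% among the 3 KO lines, where counting error alone would give 2.41% and 3.55%. The difference between these spreads was not tested. In WT lines the order of Hat1 (36, then 78, then 47) was also the order of the summed proliferation markers, which stood at 408.8, 443.3 and 605.7 CPM. In KO lines these markers summed to 813.4, 693.1 and 576.3 CPM in lines 33, 41 and 72 while Hat1 stayed within 10.0 to 10.3 CPM. The blood and macrophage markers given above also moved with genotype, with 8 of 8 lower and 6 of 8 past the adjusted threshold in edgeR. Of all tested genes, 0.528% passed that threshold. The part of either marker list in the difference of Hat1 was not tested, and in RNA from whole cultures fewer cells of a type and less RNA per cell cannot be told apart. Within lane 6 the log2 ratio of KO to WT was -1.17 and within lane 7 it was -1.003. A model with lane as a term put it at -1.10, with an adjusted p of 0.529 in edgeR. Leaving out any of the 6 lines in turn gave -1.08 to -0.87 with adjusted p-values of 0.0587 to 0.230, so that each line was needed for the call at the adjusted threshold. The unadjusted p of Hat1 in edgeR was 0.000130 with all lines and 0.000626 with the lane in the model. It ran from 0.000148 (without WT line 36) to 0.00102 (without KO line 41) with 1 line left out. Without WT lines 36 and 47, which carried the Y-linked expression, the log2 fold change was -0.97.

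**Figure D1:**
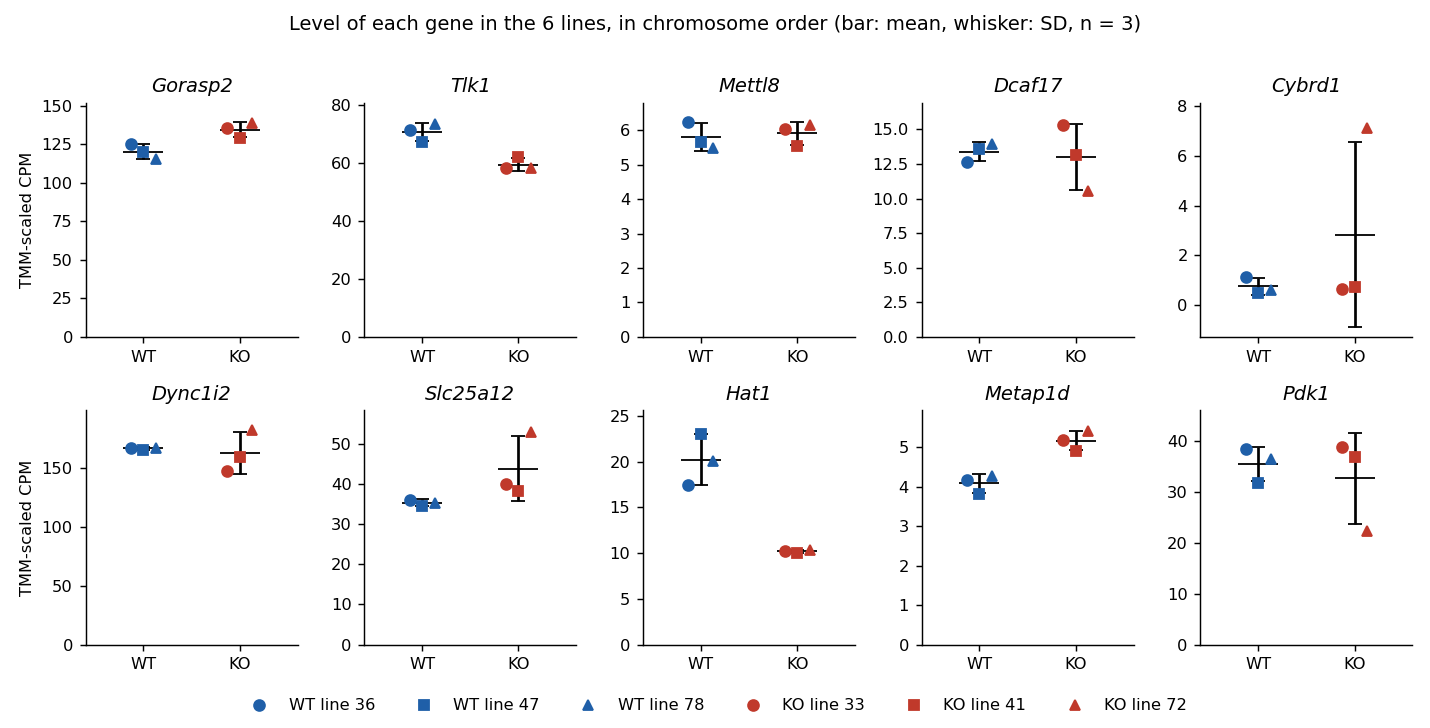
Level of each of the 10 genes (y axis, TMM-scaled CPM, 1 panel per gene in chromosome order) in the WT lines (blue) and KO lines (red), with the mean as a bar and the SD as a whisker (n = 3). Hat1 shows KO lines at 10.0 to 10.3 CPM below WT lines at 17.4 to 23.0 CPM, while KO line 72 stands away from the other lines for Cybrd1, Slc25a12 and Pdk1.

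Of the 10 genes, Hat1 alone passed the adjusted threshold in edgeR, against 0.528% of all tested genes, and all 78 genes that passed were lower in HAT1 KO. By voom, on the same genes, 263 were lower and 4 higher. The DESeq2 Wald test, run on all 17512 genes without this filter, gave 620 lower and 180 higher. At an unadjusted p below 0.05 there were 4 of the 10 (Hat1 and Tlk1 lower, Gorasp2 and Metap1d higher), where the share over all tested genes was 14.6%. Genes lower and higher at this level of p made up 8.77% and 5.88% of all tested genes. For 5 of the 10 the WT and KO lines were apart (Hat1 and Tlk1 lower, Gorasp2, Slc25a12 and Metap1d higher), against 22% of all tested genes, of which 12.4% were lower and 9.59% higher. For each of these 5 genes the exact two-sided permutation test gave p = 0.1, below which 3 lines against 3 cannot go. For the 9 neighbours the median log2 fold change was 0.03 and the median size of a change was 0.16, close to the 0.01 and 0.16 over all tested genes.

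Tlk1, whose kinase acts on chaperones of new histones, was the one of the 9 named neighbours with every KO line below every WT line. Itga6, a gene of the same stretch outside the 10, showed this too and is given below. It lies on the minus strand 563.2 kb before Hat1 (chr2:70712407-70825728). It read 71.3, 67.1 and 73.4 CPM in WT lines 36, 47 and 78, against 58.1, 62.0 and 58.1 CPM in KO lines 33, 41 and 72, with no overlap. The log2 fold change was -0.25 (SE 0.06, 95% interval -0.40 to -0.10), which leaves the KO mean at 84.1% of the WT mean. The unadjusted p was 0.0069 and the adjusted p 0.176 in edgeR, so Tlk1 did not pass. Within lanes 6 and 7 the log2 ratio was -0.21 and -0.24. The unadjusted p stayed below 0.05 in 15 of 15 alternative settings, and the adjusted p in 0 of 15.

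Gorasp2, which codes for a protein that stacks and links Golgi cisternae, ends tail to tail with Tlk1 on the opposite strand (chr2:70661576-70712636). It read 125.6, 119.9 and 115.8 CPM in the WT lines and 136.0, 129.0 and 138.7 CPM in KO lines 33, 41 and 72. The KO lines were all higher, by 0.16 on the log2 scale (SE 0.06), with an unadjusted p of 0.0432 and an adjusted p of 0.327 in edgeR. The ends of both genes share 230 bases, and the library kit named in the labels does not mark the strand, so reads from those bases cannot be assigned to one gene. The ratio of Tlk1 to Gorasp2 counts within a library, looked at after the values were seen, was 0.587 ± 0.041 in HAT1 WT and 0.442 ± 0.034 in HAT1 KO (SD, n = 3 each; exact permutation p = 0.1), without overlap of the lines. As Tlk1 was lower and Gorasp2 higher without overlap, this separation was fixed by the single genes and adds no evidence.

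The genes that flank Hat1 directly were both higher in all KO lines. Metap1d, a methionine aminopeptidase of mitochondria, begins 11.7 kb beyond the end of Hat1 on the same strand (chr2:71453276-71525194). Its levels were 4.16, 3.81 and 4.26 CPM in WT lines and 5.18, 4.91 and 5.41 CPM in KO lines 33, 41 and 72, from 307 to 461 counts. The groups did not overlap, and the log2 fold change was 0.34 (SE 0.13, 95% interval 0.03 to 0.65). Metap1d did not pass the test, with an unadjusted p of 0.0365 and an adjusted p of 0.308 in edgeR. Within lane 6 the log2 ratio was 0.47 and within lane 7 it was 0.20. The annotation places 8741 bases of the antisense gene Dlx1as across from Metap1d, and their reads cannot be told apart without strand.

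Slc25a12, the carrier that exchanges aspartate for glutamate across the inner mitochondrial membrane, lies 21.2 kb before Hat1 on the minus strand (chr2:71271063-71367749). It stood at 36.2, 34.5 and 35.4 CPM in WT lines and 40.2, 38.3 and 53.2 CPM in KO lines 33, 41 and 72. Its KO lines were above all WT lines, and KO line 72 was far above the rest. The estimate of 0.31 on the log2 scale (SE 0.13) had an unadjusted p of 0.0547 and an adjusted p of 0.352 in edgeR. Without KO line 72 it was 0.16. Slc25a12 shares 247 bases at 99.6% identity with the transcripts of Adpgk, a gene elsewhere in the genome, so a small part of its counts is uncertain.

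Set against its own flanks, the lower Hat1 level showed within each library, where scaling plays no part. Hat1 counts per Metap1d count were 4.19, 6.04 and 4.71 in WT lines 36, 47 and 78 and 1.97, 2.04 and 1.91 in KO lines 33, 41 and 72. The Hat1 to Slc25a12 ratio was 0.572 ± 0.093 in HAT1 WT and 0.237 ± 0.037 in HAT1 KO (SD, n = 3 each). Both ratios were without overlap (exact permutation p = 0.1 for each), and both were chosen after the values had been seen. Hat1 was lower and both flanks were higher without overlap, so this separation was fixed by the single genes and adds no evidence. The higher levels of the flanks also enter the size of these ratios.

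**Figure D2:**
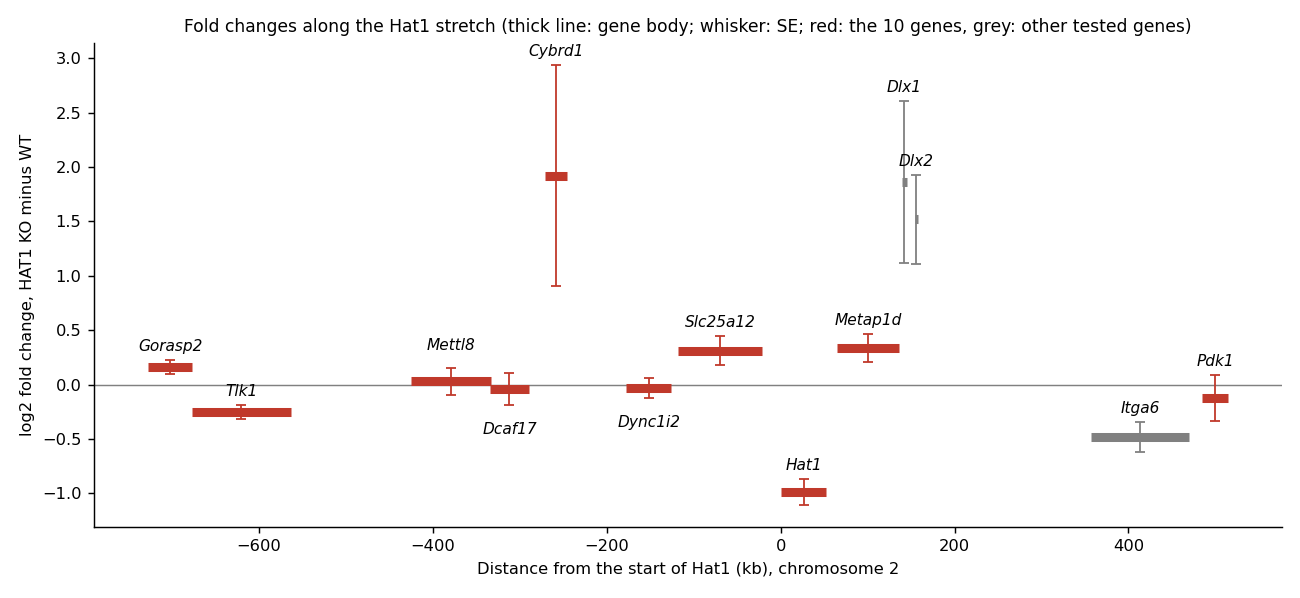
Log2 fold change (y axis, HAT1 KO minus HAT1 WT) along chromosome 2 (x axis, kb from the start of Hat1), with each gene body as a thick line and the SE as a whisker, red for the 10 genes and grey for the other tested genes of the stretch. Hat1 at -0.99 lies between Slc25a12 at 0.31 and Metap1d at 0.34.

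For the remaining mitochondrial genes the WT and KO lines overlapped, and their difference from Metap1d and Slc25a12 was not tested. Mettl8, which codes for a methyltransferase of mitochondrial transfer RNA (chr2:70964561-71055583), was at 6.24, 5.65 and 5.49 CPM in WT lines and 6.03, 5.53 and 6.16 CPM in KO lines. The groups overlapped fully, with a log2 fold change of 0.03 (95% interval -0.27 to 0.32). Pdk1, the kinase that inactivates pyruvate dehydrogenase (chr2:71873224-71903858), was at 38.4, 31.9 and 36.4 CPM in WT lines and 38.8, 36.9 and 22.4 CPM in KO lines 33, 41 and 72. KO lines 33 and 41 lay at the upper end of the WT lines and KO line 72 was the lowest of all. Its log2 fold change was -0.12 (95% interval -0.64 to 0.39) and turned to 0.10 without KO line 72.

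Dcaf17, a substrate receptor of cullin-RING ubiquitin ligases that starts head to head with Mettl8 (chr2:71055328-71099142), was at 12.6, 13.6 and 14.0 CPM in WT lines. In KO lines 33, 41 and 72 it was at 15.3, 13.1 and 10.5 CPM, on both sides of the WT range. The log2 fold change was -0.04 (95% interval -0.40 to 0.32), and 0.10 without KO line 72. Stretches of 202 to 222 bases of Dcaf17 had matches of at least 90% identity in transcripts of 21 other genes, so part of its counts is uncertain. Mettl8 and Dcaf17 share 256 bases on opposite strands. Their count ratio within a library was 0.435 in HAT1 WT and 0.466 in HAT1 KO on average (exact permutation p = 0.6). The pair with a shared start region thus gave overlapping lines for both genes and for their ratio.

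Dync1i2, an intermediate chain of cytoplasmic dynein (chr2:71211706-71263303), was at 167.8, 165.8 and 167.7 CPM in WT lines. In KO lines 33, 41 and 72 it was at 147.6, 159.8 and 182.8 CPM. WT lines were nearly identical, with a relative SD of 0.672%, while KO lines spread over 10.9% on both sides of them. The log2 fold change was -0.03 (95% interval -0.25 to 0.18).

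Cybrd1, a ferric reductase known from the iron-absorbing gut, had by far the largest fold change of the 10 genes and owed it to 1 line. It lies on the plus strand (chr2:71117923-71142926) and had 86, 40 and 60 counts in WT lines 36, 47 and 78. In KO lines 33, 41 and 72 it had 56, 50 and 550 counts, or 0.629, 0.740 and 7.13 CPM. KO lines 33 and 41 were inside the WT range and KO line 72 was far above it. The log2 fold change of 1.92 (SE 1.02) had an adjusted p of 0.449 in edgeR, and without KO line 72 it was -0.11. Cybrd1 had matches of 205 to 214 bases in transcripts of 5 other genes under the same search, and its low counts are uncertain to that extent.

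KO line 72 was the highest or the lowest of the 6 lines for 8 of the 10 genes, that is for all but Hat1 and Mettl8, where the share over all tested genes was 51.5%. For Tlk1 this rests on a near tie, with 58.05 CPM in KO line 72 against 58.06 in KO line 33. The relative SD was larger among KO than among WT lines for 5 of the 10 genes (Dcaf17, Cybrd1, Dync1i2, Slc25a12 and Pdk1), against 64.5% of all tested genes.

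Levels of different genes were compared as CPM per kb of exon. In HAT1 WT the order was Gorasp2 (29.1 CPM per kb), Dync1i2 (20.2), Tlk1 (10.9), Hat1 (6.997), Slc25a12 (4.82), Pdk1 (4.57), Dcaf17 (1.37), Mettl8 (1.04), Metap1d (0.899) and Cybrd1 (0.140). The lines of each gene were separate from those of the next, except that Slc25a12 and Pdk1 overlapped. In HAT1 KO the level of Hat1 was 3.53 CPM per kb, below Slc25a12 at 5.98 and among the lines of Pdk1 at 4.20. Hat1 thus moved from the fourth to the sixth place, and from above 63.9% to above 47.7% of all tested genes by level per kb. At the lower end the KO lines of Dcaf17, Metap1d and Mettl8 each overlapped those of the next gene in order, which for Mettl8 was Cybrd1, the lowest.

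**Figure D3:**
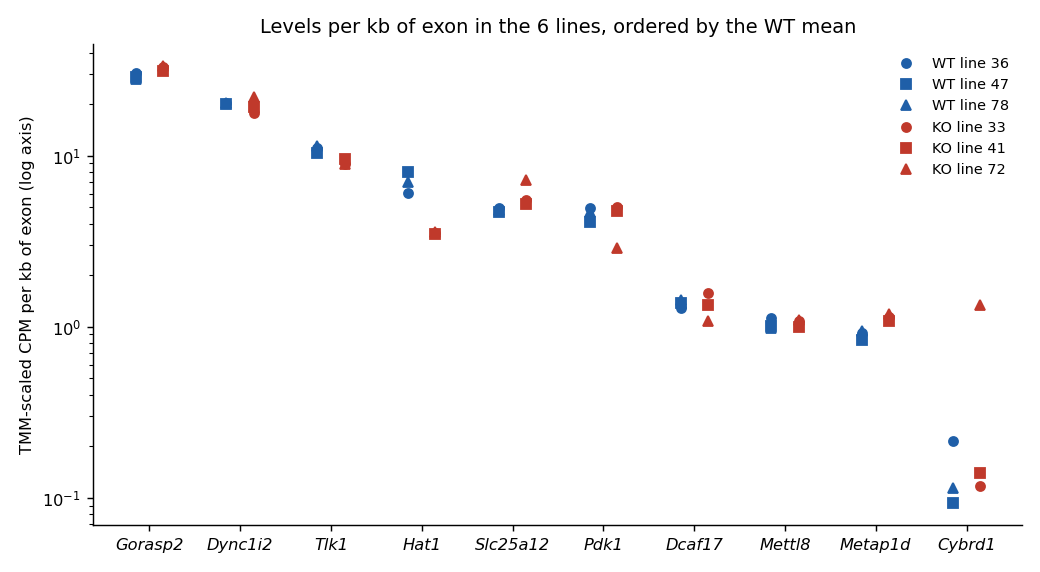
Level of the 10 genes (y axis, TMM-scaled CPM per kb of exon, log axis) in the 6 lines, with genes ordered by their mean in HAT1 WT, blue for WT lines and red for KO lines. Hat1 moves from 6.997 to 3.53 CPM per kb on average, and the gap between KO line 72 and the other KO lines is widest for Cybrd1.

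The stretch from Gorasp2 to Pdk1 covers 1.24 Mb and holds 27 annotated genes, of which 14 code for protein. The table had 13 genes of the stretch, all tested, so that 3 genes beside the 10 could be read. These were the homeobox genes Dlx1 and Dlx2 and the integrin subunit gene Itga6. Dlx1 had a log2 fold change of 1.86 (SE 0.75), Dlx2 of 1.52 (SE 0.41) and Itga6 of -0.48 (SE 0.14). All of these 3 were below an unadjusted p of 0.05 in edgeR, where the share of all tested genes was 14.6%. The adjusted p-values of these 3 in edgeR were 0.331, 0.195 and 0.210. Dlx1 had only 60, 19 and 12 counts in WT lines 36, 47 and 78. In KO lines 33, 41 and 72 it had 64, 110 and 141 counts, and the genotypes overlapped in CPM. Dlx2 stood at 1.96, 1.85 and 1.90 CPM in WT lines and 3.79, 3.34 and 9.23 CPM in KO lines 33, 41 and 72, with KO line 72 again the farthest. Itga6 was at 148.4, 159.9 and 166.8 CPM in WT lines 36, 47 and 78. In KO lines 33, 41 and 72 it was at 128.7, 91.15 and 120.8 CPM, each below every WT line.

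A wider window was counted around Hat1. Within 2 Mb on either side 33 genes other than Hat1 were tested, and 9 of them were below an unadjusted p of 0.05 in edgeR, 4 lower and 5 higher. None of the 33 passed the adjusted threshold. Their median log2 fold change was 0.03 and the median size of a change was 0.16, the same to 2 decimals as the median size over all tested genes. The groups did not overlap for 10 of the 33, against 22% of all tested genes, and the share of all tested genes below an unadjusted p of 0.05 was 14.6%. Beyond the genes named above, these 9 included Klhl23 at 0.33 (SE 0.13), Gpr155 at -0.73 (SE 0.18) and Wipf1 at -0.41 (SE 0.09). The next neighbours in distance were Map3k20 at 0.13 (SE 0.15) and Cdca7 at 0.33 (SE 0.25). From 2 to 10 Mb away 12 of 66 tested genes were below an unadjusted p of 0.05, on the rest of chromosome 2 there were 171 of 1066, and on the other chromosomes 1971 of 13607. In these classes 0, 10 and 67 genes passed the adjusted threshold. Hat1 was thus the one gene within 10 Mb of itself that did.

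**Figure D4:**
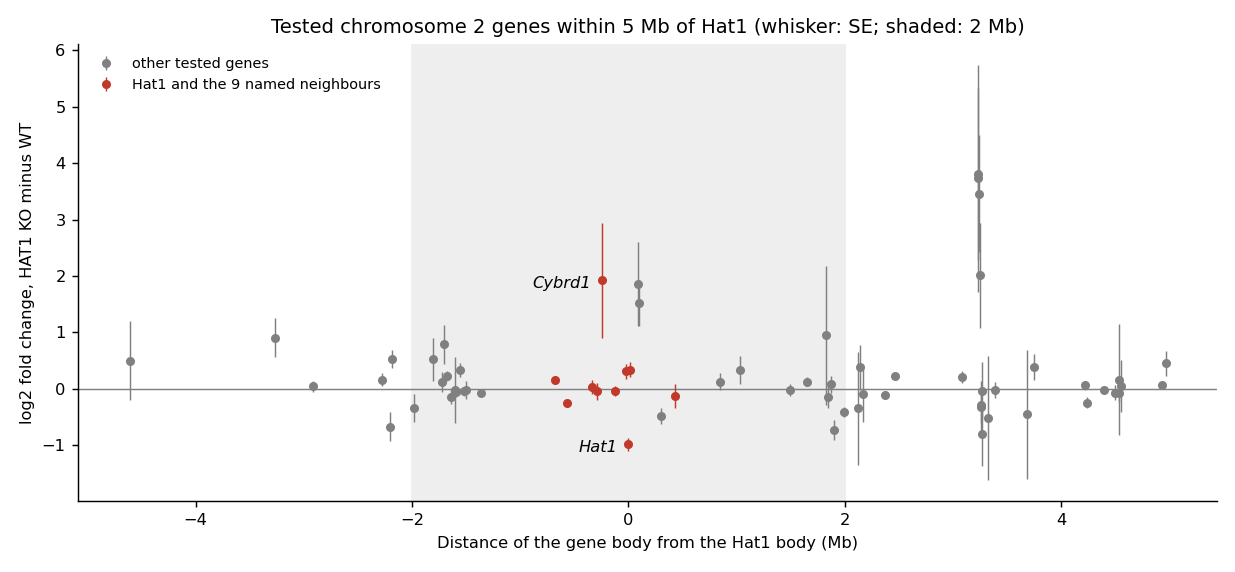
Log2 fold change (y axis, HAT1 KO minus HAT1 WT, with SE whiskers) of the tested chromosome 2 genes within 5 Mb of Hat1 (x axis, Mb from the Hat1 body), red for Hat1 and its 9 named neighbours and grey for the others, with 2 Mb on either side shaded. Hat1 at -0.99 is the lowest point, and most genes beside it lie near 0.

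Genes with a related product elsewhere in the genome were read beside the 10. Of 13 paralogues tested (Metap1, Metap2, Slc25a13, Dync1i1, Cyb561, Cyb561a3, Mettl2, Mettl6, Tlk2, Gorasp1, Pdk2, Pdk3 and Pdk4), none passed the adjusted threshold and 1 had an unadjusted p below 0.05 in edgeR, where the share of all tested genes was 14.6%. This was Metap1, the cytosolic counterpart of Metap1d, at 42.1 ± 0.398 CPM in HAT1 WT and 46.4 ± 1.54 CPM in HAT1 KO (SD, n = 3 each). Its log2 fold change was 0.14 (SE 0.06). Tlk2, the second tousled-like kinase, was at 51.2 ± 4.07 CPM and 48.2 ± 2.13 CPM, with a log2 fold change of -0.09 (SE 0.08) and overlapping lines. Slc25a13 was at 0.49 (SE 0.30) and Gorasp1 at 0.03 (SE 0.13). Pdk2, Pdk3 and Pdk4 were at 0.13 (SE 0.27), 0.11 (SE 0.07) and 0.41 (SE 0.50). Of these, Slc25a13, Gorasp1, Pdk2 and Pdk4 were highest in KO line 72. Without that line the KO mean of Pdk2 was 10.98 CPM against 12.84 in HAT1 WT. For Pdk4 it was 6.87 against 8.58 CPM, and for Gorasp1 20.61 against 21.94 CPM. It stayed above HAT1 WT for Slc25a13 (13.37 against 12.07 CPM) and Pdk3 (43.9 against 39.72 CPM). The median over the 13 paralogues was 0.11.

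The partners and carriers of new histone H4 were read in the same way. Of the 6 genes (Rbbp7, Rbbp4, Nasp, Asf1a, Asf1b and Ipo4), none passed the adjusted threshold, and 3 were higher at an unadjusted p below 0.05 in edgeR, where 5.88% of all tested genes were higher. Asf1b, a chaperone that hands new H3-H4 to the assembly factors, was at 8.42, 11.2 and 9.15 CPM in WT lines and 17.6, 12.9 and 13.4 CPM in KO lines 33, 41 and 72. All KO lines were above all WT lines for Asf1b, with a log2 fold change of 0.61 (SE 0.17) and an adjusted p of 0.201. Asf1a was at 0.26 (SE 0.09) and the importer gene Ipo4 at 0.20 (SE 0.07). Rbbp7, whose product is the partner of HAT1 in its complex, was at 0.11 (SE 0.12), Rbbp4 at 0.12 (SE 0.08) and the chaperone gene Nasp at 0.13 (SE 0.17). The median over the 6 genes was 0.16. The proliferation markers were higher in HAT1 KO beside them, with a median log2 fold change of 0.64 over 7 of 7 genes, and their part in the values of this list was not tested. With the lane in the model 0 of the 6 genes remained below an unadjusted p of 0.05.

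The profile of Hat1 over the 6 lines was compared with that of every other tested gene. The measure was the root mean square difference of log2 CPM after each gene was centred on its own mean. The 5 closest genes were Evi2a on chromosome 11 (0.081), Dennd1c on chromosome 17 (0.087), Ugt1a7c on chromosome 1 (0.098), Lonrf3 on the X chromosome (0.114) and Ebi3 on chromosome 17 (0.119), where the median over 14772 genes was 0.547. None of these 5 lies on chromosome 2. The log2 fold changes of these 5 were -0.97, -1.04, -0.87, -0.76 and -0.96 in this order. With 3 lines per genotype, genes lower in HAT1 KO by about as much as Hat1 come out close by this measure. Ugt1a7c belongs to a family of transcripts with common exons, so its counts are uncertain. The nearest among the neighbours was Tlk1 at 0.393, in place 1244. By Pearson correlation of the same profiles 1 of these 5 genes, Lonrf3, was again among the 5 closest. Dclre1c, which lies on chromosome 2, was also among the 5 closest by correlation (0.991). By the root mean square difference it stood in place 254.

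The 15 alternative settings were set out for the genes that did not overlap and for Cybrd1. Hat1 kept a negative log2 fold change, between -1.10 and -0.87, in all of them and passed the adjusted threshold in 6 of 15. Gorasp2, Metap1d and Slc25a12 stayed positive throughout, at 0.13 to 0.23, 0.29 to 0.38 and 0.16 to 0.40. They had an unadjusted p below 0.05 in 7, 6 and 4 of the 15.

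**Figure D5:**
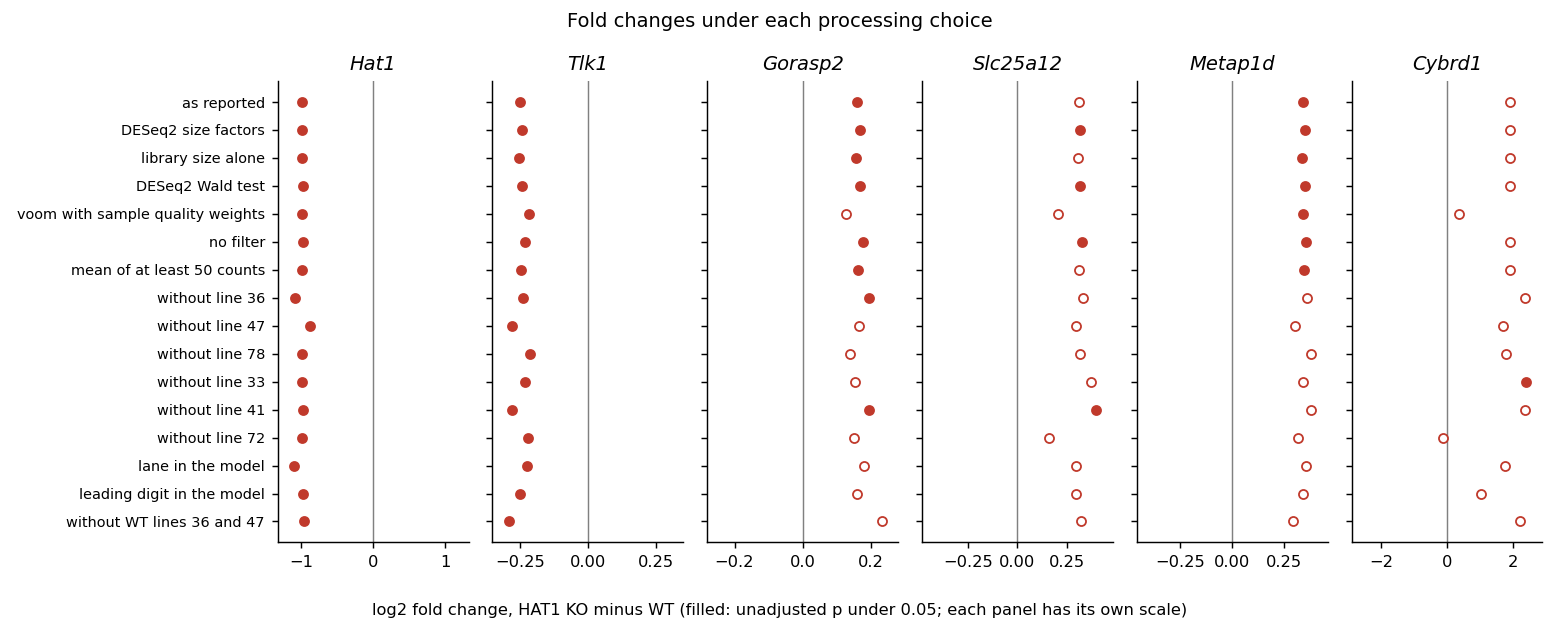
Log2 fold change (x axis, HAT1 KO minus HAT1 WT, own scale in each panel) of 6 genes under the reported setting and 15 alternatives (y axis), with filled points where the unadjusted p was below 0.05. Hat1 and Tlk1 are filled in every setting, and Cybrd1 drops to -0.11 without KO line 72.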

How the data were processed

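The 10 genes, the lists and the tests were chosen with earlier results of these data known. The authors deposited 1 table of raw read counts per gene for 6 libraries, together with their own comparison (log2 fold change, log2 mean CPM, F score, p-value and q-value), and these columns deposited by the authors were not used here. The submitters' processing notes name mm10 and edgeR, and aligner, counter and strand setting were not given in the sources used here. All 17512 genes matched GENCODE M21 (GRCm38) by identifier, 24 symbols lost to a date format were restored from it, and 0 sample columns were left unmapped.

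The deposited counts went into edgeR 4.0.16 (R 4.3.3), with filterByExpr at its defaults, TMM scaling and glmQLFit and glmQLFTest on genotype alone, two-sided, with Benjamini-Hochberg adjustment over 14773 genes and a threshold of 0.05. An SE is the size of the log2 fold change divided by the square root of F. Levels are TMM-scaled CPM. Single values were tested by exact permutation over the 6 lines. The test was checked on simulated data. There it called 44% of 50 genes set to a fold of 0.5 and 52% of 50 genes set to a fold of 2. Of 50 genes set to a fold of 1.5 it called 2%. A gene that did not pass is therefore not shown to be unchanged. The common dispersion between lines was 0.0747. For some of the 10 genes the spread between 3 lines of a genotype was no larger than counting error.

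All 10 genes had entries among the RefSeq promoter windows (GRCm38.p6). A gene with several start sites has several windows. Copies were searched with BLAST 2.17.0.

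Genes named are the 10, the tested genes within 2 Mb at an unadjusted p below 0.05, the 5 nearest tested genes that are not among the 10, both lists, and the 5 genes most like Hat1. The alternatives were DESeq2 1.42.0 size factors or its Wald test, library size alone, voom (limma 3.58.1) with sample quality weights, no filter or a mean of 50 counts, leaving out each line, a term for lane or for the first digit of the line number, leaving out WT lines 36 and 47, windows of 1 and 5 Mb, and Pearson correlation.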

Additional observations from a re-analysis of the deposited data

How the results depend on the processing

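No paired analysis was possible because the genotypes share no replicate number in the labels. The first digit of the line number matches 1 WT line to 1 KO line, and a fit with it pairs them by assumption only. Hat1 kept its direction in 15 of 15 alternatives. Its adjusted p passed 0.05 in 6 of them and missed it with the lane in the model (log2 fold change -1.10, adjusted p 0.529 in edgeR), with a term for the first digit of the line number (-0.98, 0.139), without WT lines 36 and 47 together (-0.97, 0.670) and without any single line (-1.08 to -0.87, 0.0587 to 0.230). In each of these settings 0 of the 10 genes passed, with 0 to 0 over the single lines left out. WT lines 36 and 47 carry the Y-linked expression, and leaving both out makes WT line 78 stand alone, assumed to vary like the KO lines.

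The number of genes passing over the whole table was 78 as reported, 800 by the DESeq2 Wald test (620 lower, 180 higher), 267 by voom (263 lower, 4 higher), 46 without a filter, 2 with the lane, 0 with the first digit (1768 genes at an unadjusted p below 0.05), 0 without WT lines 36 and 47 (1126) and 0 to 73 with 1 line left out. It was 0 without WT line 36 (1439), WT line 47 (1666) or KO line 33 (1859). It was 4 without WT line 78, 6 without KO line 41 and 73 without KO line 72. The cause of these differences was not tested. Fits that leave lines out also hold fewer lines, and the part of that was not tested either. The 9 neighbours held 3 genes at an unadjusted p below 0.05, and 1 (Tlk1) with the lane, with the first digit or without WT lines 36 and 47, and 1 to 3 with 1 line left out (1 each without WT line 47, WT line 78 or KO line 72). The paralogues held 1 such gene, and 0 under library size alone, voom, the lane, the first digit and without WT lines 36 and 47, and 0 to 1 with 1 line left out. The new histone H4 list held 3, and 0 with the lane or without WT lines 36 and 47, and 1 (without WT line 78) to 5 (without KO line 72). The window of 2 Mb held 10 with Hat1, and 6 with the lane, 3 without WT lines 36 and 47, 17 at 5 Mb and 6 (without WT line 78) to 9 with 1 line left out. Of the 5 genes most like Hat1, Pearson correlation shared 1.

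Of 135 values of single neighbours under the alternatives, 127 kept their sign and 8 reversed, all of genes near 0 or resting on KO line 72. Voom gave Mettl8 -0.0070, Dcaf17 0.040 and Pdk1 0.0062. With 1 line left out Mettl8 ran from -0.0028 (without WT line 78) to 0.089, Dync1i2 from -0.11 to 0.037 (without KO line 33), Dcaf17 from -0.18 to 0.10 (without KO line 72), Cybrd1 from -0.11 (without KO line 72) to 2.40 and Pdk1 from -0.26 to 0.10 (without KO line 72). With 3 lines a genotype, and counts below 100 for Cybrd1 in 5 of 6 lines, small changes of these genes could not be detected.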
